A study of Mus musculus with 4 samples.

Results

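The motile cilium genes described here are the 60 genes, of 32285 in the count matrices, whose symbol begins with Dnah, Cfap, Rsph or Drc followed by a digit. They comprise 16 Dnah, 33 Cfap, 8 Rsph and 3 Drc genes. The prefix Dnai was also searched and had 0 genes, because the files name the axonemal intermediate chains Dnaic1 and Dnaic2. Membership was set by the name alone, but genes and lists were chosen with earlier results of these data known. Single cells had been prepared from entire mouse lungs, 2 libraries from Galt-edited animals (GAL) and 2 from wild-type animals (WT). Lungs were rinsed, minced, digested with collagenase and DNase for 30 min and encapsulated in droplets in which each mRNA molecule receives a unique molecular identifier (UMI). The enzyme made from Galt, galactose-1-phosphate uridylyltransferase, acts in the breakdown of galactose. The labels do not give the kind of edit, the strain, age or sex of the mice, or whether a library is 1 animal or a pool. All p-values below therefore measure the spread between these 4 samples, which may be technical in part.

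A motile cilium is built on an axoneme, a ring of microtubule doublets around a central pair. Outer and inner dynein arms, whose motors are the Dnah heavy chains, slide neighbouring doublets against each other. Radial spokes (Rsph), the nexin-dynein regulatory complex (N-DRC; Drc) and the central apparatus pass mechanical signals that turn this sliding into a beat. Many cilia and flagella associated proteins (Cfap) belong to these structures, line the inside of the doublets or help to assemble the arms. In the lung, motile cilia sit on ciliated cells of the airway lining, where they move mucus, and the transcription factors Foxj1 and Rfx drive the programme.

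Sequence near the gene starts is shown first, since RFX factors bind a sequence called the X-box. RefSeq promoters (GRCm38.p6, 250 bases before to 50 after each start) matched 48 of the 60 genes. The core GTTGCC, searched on both strands, occurred in 16 of these 48 promoters (33.3%), against 12.7% of all 27025 RefSeq promoters. The full pair GTNNCC followed by GGNNAC, with 0 to 3 bases between them, occurred in 6 of 48 (12.5%), against 3.81% of all; it can overlap the core. The forkhead motif TGTTTAC occurred in 3 of 48 (6.25%), against 3.55%, and the TATA motif TATAAA in 3 of 48 (6.25%), against 14.2%. A match is a stretch of letters and was not tested as a binding site. 6 promoters are printed, 4 with several cores or pairs, that of Rsph9 for a pair without the core and that of Drc1 for a single core near the start. Each runs 5′ to 3′ along its gene, and capitals mark the cores and pairs.
Cfap298 (chr16:90934800-90935099, minus strand): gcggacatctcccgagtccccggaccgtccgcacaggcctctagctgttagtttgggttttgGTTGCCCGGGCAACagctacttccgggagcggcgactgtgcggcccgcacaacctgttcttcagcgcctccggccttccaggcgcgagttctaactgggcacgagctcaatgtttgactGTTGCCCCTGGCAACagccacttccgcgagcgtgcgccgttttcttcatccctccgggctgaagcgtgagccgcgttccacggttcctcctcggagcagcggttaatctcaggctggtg
Cfap161 (chr7:83794790-83795089, minus strand): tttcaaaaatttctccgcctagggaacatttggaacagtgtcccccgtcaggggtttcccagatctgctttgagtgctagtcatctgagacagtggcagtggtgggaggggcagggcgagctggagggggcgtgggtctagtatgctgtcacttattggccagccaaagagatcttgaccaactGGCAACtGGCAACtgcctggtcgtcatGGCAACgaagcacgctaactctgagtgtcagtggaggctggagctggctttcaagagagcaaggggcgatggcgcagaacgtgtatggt
Cfap44 (chr16:44394549-44394848, plus strand): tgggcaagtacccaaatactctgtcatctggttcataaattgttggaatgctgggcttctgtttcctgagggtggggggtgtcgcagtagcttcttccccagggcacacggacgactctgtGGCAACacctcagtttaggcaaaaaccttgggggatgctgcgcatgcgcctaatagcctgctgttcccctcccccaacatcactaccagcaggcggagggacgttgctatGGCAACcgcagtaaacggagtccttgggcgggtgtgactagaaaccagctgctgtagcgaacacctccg
Dnah10 (chr5:124724835-124725134, plus strand): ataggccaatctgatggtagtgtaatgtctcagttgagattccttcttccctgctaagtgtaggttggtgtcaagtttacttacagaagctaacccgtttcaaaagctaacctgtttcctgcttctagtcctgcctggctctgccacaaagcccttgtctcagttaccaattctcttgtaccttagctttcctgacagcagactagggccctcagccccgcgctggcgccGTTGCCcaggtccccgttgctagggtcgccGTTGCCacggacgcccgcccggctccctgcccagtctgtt
Drc1 (chr5:30281143-30281442, plus strand): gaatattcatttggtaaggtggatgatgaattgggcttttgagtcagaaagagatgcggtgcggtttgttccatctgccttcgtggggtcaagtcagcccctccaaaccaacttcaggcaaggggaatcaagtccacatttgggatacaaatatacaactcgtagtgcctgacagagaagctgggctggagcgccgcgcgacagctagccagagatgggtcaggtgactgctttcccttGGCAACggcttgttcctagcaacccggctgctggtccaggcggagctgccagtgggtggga
Rsph9 (chr17:46144151-46144450, minus strand): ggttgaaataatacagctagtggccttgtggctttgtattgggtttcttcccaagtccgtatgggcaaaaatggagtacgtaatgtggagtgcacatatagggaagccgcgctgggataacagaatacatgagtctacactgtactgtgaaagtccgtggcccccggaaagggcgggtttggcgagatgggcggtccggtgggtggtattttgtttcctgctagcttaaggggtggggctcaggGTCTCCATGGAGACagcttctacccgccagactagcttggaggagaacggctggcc

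The deposited matrices held 62406681 and 56218178 UMIs in GAL libraries and 61340929 and 58518235 UMIs in WT libraries. After filters and removal of likely doublets, 10967 and 10757 GAL cells and 12441 and 13515 WT cells were kept, 47680 in all. Pairs of libraries shared 107 to 149 cell barcodes. The RNA of Galt itself had 13.3 and 10.6 CPM (UMIs per 1000000 UMIs of the summed cells) in whole GAL lungs and 11.5 and 11.3 CPM in whole WT lungs, which overlapped; since the kind of edit is not given, this does not check the labels. In ciliated cells Galt had 4 and 3 UMIs in GAL libraries and 1 and 1 in WT libraries. GAL replicate 1 stood apart in its epithelial and fibroblast cells: 437 of its cells passed the alveolar type 2 gate, against 19 in GAL replicate 2 and 72 and 61 in WT libraries, and 911 passed the alveolar fibroblast gate, against 340 in GAL replicate 2 and 312 and 294 in WT libraries.

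Ciliated cells were gated on 12 markers that are not among the 60 genes, among them the transcription factor Foxj1, Tmem212, Ccdc153, Sec14l3 and the tektin Tekt1. A cell needed at least 5 of the 12 and a ciliated score above that of every other list except club cells. It selected 67 and 36 cells of the GAL libraries, against 42 and 41 of the WT libraries, 186 in all. All 186 lay in a single cluster of 204 cells that was found without the 60 genes. Marker detection separated the cells into classes, with 199 kept cells at 5 or more markers, 72 at 3 or 4 and 47409 at 0 to 2. Those of the 199 that failed the score rule were counted neither as ciliated nor as other cells. Below, other cells and cells outside the ciliated gate are kept cells with fewer than 5 markers. The gated cells carried a median of 12 and 12 markers in GAL libraries and of 11 and 11 in WT libraries. Their median UMI count was 8970 and 8944 in GAL libraries and 6349 and 7282 in WT libraries.

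Ciliated cells were 0.611% (exact 95% interval 0.474 to 0.775) and 0.335% (0.235 to 0.463) of kept cells in GAL libraries, against 0.338% (0.243 to 0.456) and 0.303% (0.218 to 0.411) in WT libraries. The intervals cover counting error only. GAL replicate 1 was high and GAL replicate 2 lay between the WT libraries. The share averaged 0.473 ± 0.195% in GAL and 0.320 ± 0.0242% in WT libraries (SD, n = 2 each; exact two-sided permutation p = 0.667, where 0.333 is the smallest p that 2 against 2 libraries allow).

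RNA of club cells, the secretory cells that neighbour ciliated cells, was uneven among the gated cells. The 8 club markers, including the secretoglobin Scgb1a1, took 16.9% and 1.66% of the ciliated UMIs in GAL libraries, against 7.34% and 1.41% in WT libraries. Of the markers of other cells, all 8 club markers were detected and 6 of 8 basal or neuroendocrine markers were at 0. Markers of further types were found too, and full detection was not particular to club markers. All 9 alveolar type 1 markers were detected, summing to 759 and 937 CPM in GAL and 736 and 863 CPM in WT libraries. All 9 alveolar fibroblast markers were detected as well, summing to 1146 and 866 CPM in GAL and 777 and 1000 CPM in WT libraries. Markers of adventitial fibroblasts summed to 1464 and 2071 CPM in GAL and 1496 and 1589 CPM in WT libraries. Those of alveolar type 2 cells summed to 1294 and 62.8 CPM in GAL and 319 and 68.5 CPM in WT libraries. A larger share of club UMIs leaves a smaller share for all other genes, so the summed level below is also given without the club markers.

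Most of the 60 genes had their RNA mainly in the ciliated cells. They gave 21282 UMIs in the 186 ciliated cells and 26015 UMIs in the other cells, those with fewer than 5 ciliated markers. Of the 60 genes, 57 were detected in ciliated cells and 55 had their highest mean level there among the 15 cell types compared. Counts were summed per library and compared between ciliated and these other cells by the edgeR quasi-likelihood test with library as a block, adjusted by Benjamini-Hochberg over 16222 genes. 57 of the 60 genes passed the filter on low counts; 53 were called higher in ciliated cells and 1 lower, where 56.3% of all genes tested were called in either direction and 21.8% were called higher. Without that filter all 60 were tested and 54 were called higher, where 14.6% of all genes were. The median log2 fold change of the 57 was 9.07, against -0.42 over all genes tested. With total UMIs in place of TMM scaling, 53 were again called higher, the medians became 9.41 and -0.12, and the share of all called genes that were higher was 49.2%, against 38.8% with TMM scaling. Of the 57 genes detected in ciliated cells, 33 had a level in other cells under 0.2% of the ciliated level, 11 lay at 0.2 to 1% and 13 at 1% or more. The gate markers themselves ranged from 0.0383 to 4.57%, with 10 of 12 under 0.2%, which is the level that the markers used for the gate have outside it.

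**Figure D1:**
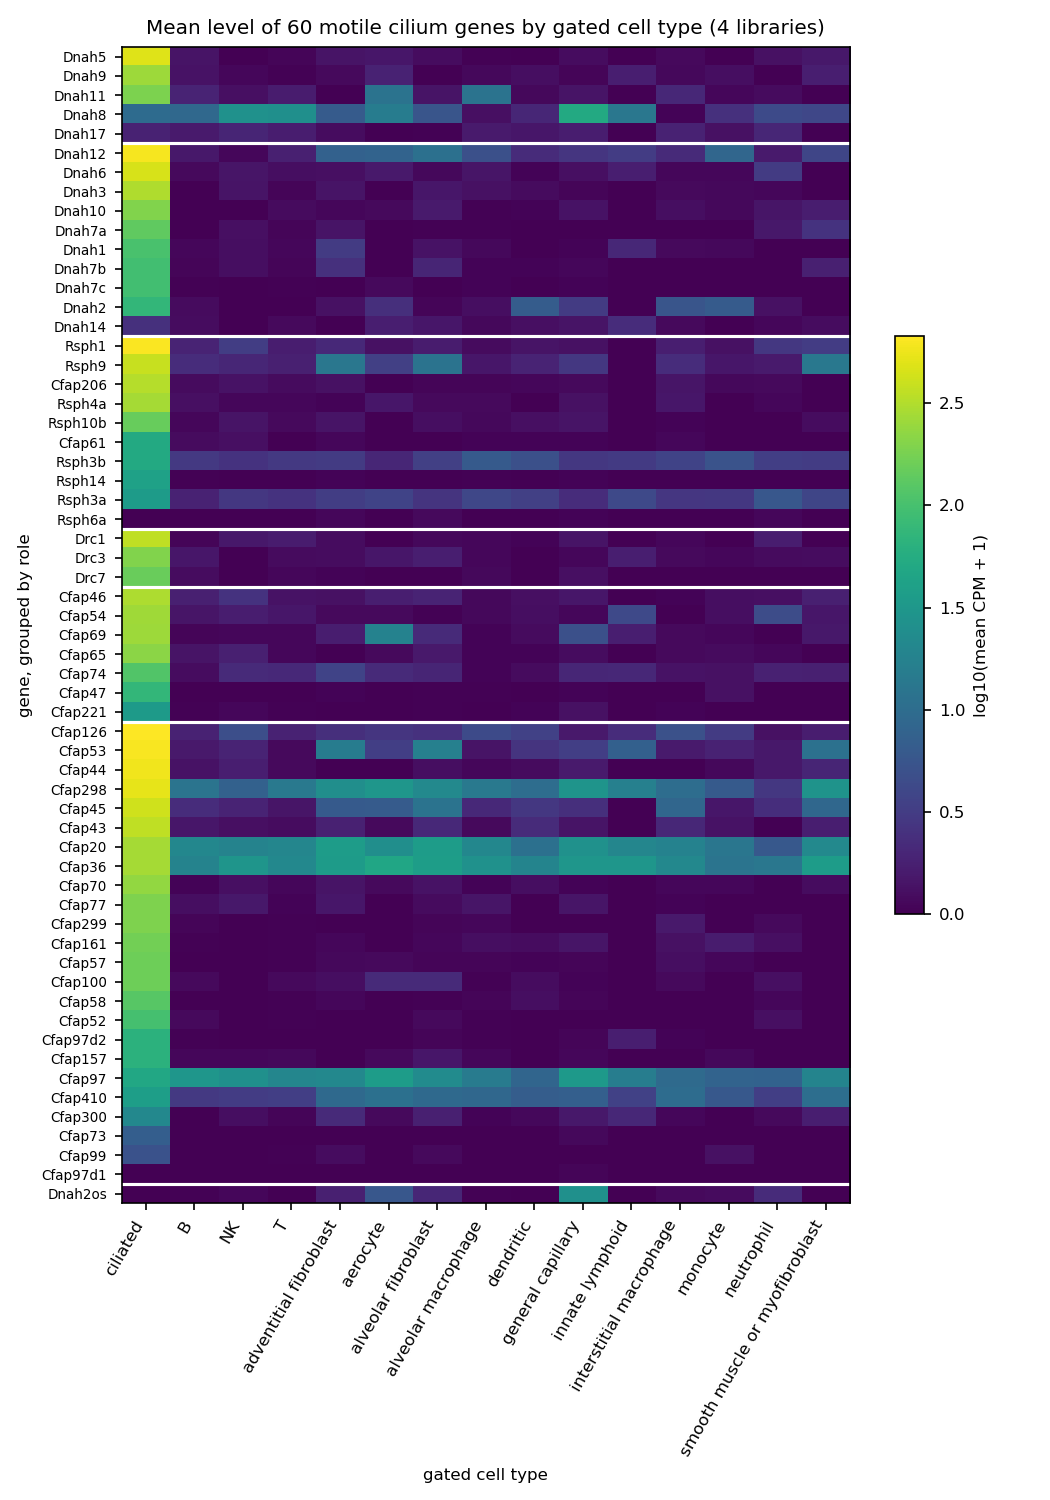
Mean level of each of the 60 genes over the 4 libraries, as log10 of CPM plus 1, in ciliated cells (left column) and in the other 14 gated cell types with at least 30 cells in every library. White lines separate the role groups; most rows are bright in the ciliated column alone, while Dnah8, Cfap298, Cfap20, Cfap36, Cfap97 and Cfap410 also show levels across other types.

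With every cell thinned to 2000 UMIs, a median of 18 and 17 of the 60 genes was detected per ciliated cell in GAL libraries and of 18 and 20 in WT libraries. The thinning left out 5 and 8 GAL cells and 4 and 5 WT cells with fewer UMIs, and the unthinned medians were 38 and 36.5 in GAL and 34 and 37 in WT libraries. Single ciliated cells at that depth held between 1 and 28 and between 11 and 24 of the genes in GAL libraries, against between 1 and 29 and between 11 and 28 in WT libraries. At the same depth the median was 0 in general capillary cells and in alveolar macrophages of every library. The genes made up a median of 1.35% and 1.15% of the UMIs of a ciliated cell in GAL libraries and of 1.36% and 1.44% in WT libraries.

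Levels in CPM were not divided by transcript length and are not ranked between genes. They are also not TMM-scaled, and whether the GAL and WT libraries overlap is said of these values; it was the same after TMM scaling unless said otherwise. Among outer arm heavy chains, Dnah5, which is needed for the whole arm, had 380.5 and 462 CPM in ciliated cells of GAL libraries and 573 and 527 CPM in those of WT libraries. Dnah9, of the outer arms near the tip, had 222 and 238 CPM in GAL and 253 and 321 CPM in WT libraries. Dnah11, of the arms near the base, had 162 and 142 CPM in GAL and 236 and 196 CPM in WT libraries. For these genes both GAL libraries lay below both WT libraries, but after TMM scaling Dnah11 overlapped, with 184 and 135 CPM in GAL and 242 and 177 CPM in WT libraries. Against other cells, Dnah5 was higher by 10.76 ± 0.30 on the log2 scale (SE; edgeR adjusted p = 1.3e-37), with 0.216 CPM in other cells. The outer arm chains known from sperm had few UMIs in ciliated cells. Dnah8 had 4.76 and 2.73 CPM in ciliated cells of GAL and 27.8 and 0 CPM in those of WT libraries, and its difference from other cells was -0.60 ± 0.50 (edgeR adjusted p = 0.307). Without WT replicate 1, which held most of its ciliated UMIs, the difference was -1.92 and was called. Dnah17 had 0 and 0 CPM in GAL and 3.47 and 0 CPM in WT libraries, which is a single UMI in all.

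Of 10 inner arm heavy chains, 9 were called higher in ciliated cells. Dnah12 had 602 and 519 CPM in GAL and 663 and 695 CPM in WT libraries. Dnah6 had 415 and 429 CPM in GAL and 437 and 514 CPM in WT libraries. Dnah3 had 272 and 238 CPM in GAL and 302 and 429.9 CPM in WT libraries. The GAL libraries were the lower pair for these single-headed chains before TMM scaling only. After it all 3 overlapped, Dnah12 with 684 and 495 CPM in GAL and 679 and 626 CPM in WT libraries. Dnah10, a heavy chain of the double-headed inner arm, had 145 and 175 CPM in GAL and 243 and 224 CPM in WT libraries, again without overlap. Dnah1 had 95.1 and 117 CPM in GAL and 115 and 81.0 CPM in WT libraries, which overlapped. Dnah7a had 115 and 117 CPM in GAL and 97.2 and 221 CPM in WT libraries, with WT replicate 2 alone high. Dnah7a, Dnah7b and Dnah7c are close copies. Over the longest transcript of each, 30.6% of the stretches of 50 bases in Dnah7a also occur in Dnah7b. Of those of Dnah7b, 38.5% occur in Dnah7c. How far reads fall on shared stretches was not measured, so the split of reads among these genes is uncertain. The remaining members, Dnah7b, Dnah7c and Dnah2, averaged 72.8 to 93.2 CPM. Dnah14 had 3 UMIs in ciliated cells and was not called (log2 fold change 2.60, edgeR adjusted p = 0.070).

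Among radial spoke genes, the spoke head protein Rsph1 had 565 and 727 CPM in GAL and 579.6 and 726 CPM in WT libraries. Rsph9, another head protein, had 292 and 434 CPM in GAL and 326 and 511 CPM in WT libraries. Rsph4a, the head scaffold, had 234 and 273 CPM in GAL and 264 and 336 CPM in WT libraries. For all 3, GAL and WT libraries overlapped, except that Rsph4a was lower in both GAL libraries after TMM scaling (266 and 260.5 CPM, against 270.0 and 303 CPM in WT libraries). Cfap206, which docks a spoke to the doublet, had 231 and 377 CPM in GAL and 326 and 358 CPM in WT libraries. Rsph10b had 124 and 137 CPM in GAL and 191 and 143 CPM in WT libraries, the GAL pair being lower before TMM scaling and overlapping the WT pair after it (141 and 130.2 CPM in GAL, 195 and 129 CPM in WT libraries). Cfap61, of the spoke base, had 51.1 and 49.2 CPM in GAL and 59.0 and 46.7 CPM in WT libraries. Rsph3a, Rsph3b and Rsph14 averaged 34.6 to 51.2 CPM, and Rsph3a shares 74.0% of its 50-base stretches with Rsph3b. Rsph6a, a sperm relative of Rsph4a, had 0 UMIs in ciliated cells and 5 elsewhere. A count of 0 over the 1816271 ciliated UMIs allows up to 1.65 CPM.

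The N-DRC links neighbouring doublets. Drc1, at its base, had 249.7 and 366 CPM in GAL and 378 and 455 CPM in WT libraries. Drc3 had 178 and 183 CPM in GAL and 170.0 and 249 CPM in WT libraries. Drc7 had 111 and 139 CPM in GAL and 177 and 178 CPM in WT libraries. The GAL pair lay below the WT pair for Drc1 and Drc7, while the libraries overlapped for Drc3. Drc1 had 0.231 CPM in other cells, a difference of 10.25 ± 0.27 (edgeR adjusted p = 4.4e-38).

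The central apparatus genes had a similar spread. Cfap46 had 224 and 311 CPM in GAL and 305 and 361 CPM in WT libraries. Its partner Cfap54 had 252 and 262 CPM in GAL and 260.3 and 299 CPM in WT libraries. Both overlapped between genotypes, Cfap46 before TMM scaling only. Cfap74, of the same projection, had 93.9 and 82.0 CPM in GAL and 121 and 159 CPM in WT libraries, without overlap. Cfap65 had 163 and 224 CPM in GAL and 222 and 262 CPM in WT libraries. Cfap69 had 221 and 276 CPM in GAL and 267 and 265 CPM in WT libraries. Both overlapped, but after TMM scaling Cfap65 was the lower in GAL, with 185 and 214 CPM, against 227 and 236 CPM in WT libraries. Cfap47 had 93.9 and 43.7 CPM in GAL and 65.9 and 90.3 CPM in WT libraries, and Cfap221 averaged 33.5 ± 13.7 CPM over the 4 libraries.

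The 24 remaining Cfap genes include proteins inside the doublets and assembly factors. Cfap126, known as Flattop and linked to basal body docking, had 589 and 721 CPM in GAL and 618 and 763 CPM in WT libraries. Cfap53, a protein of the doublet lumen, had 509 and 568 CPM in GAL and 590.0 and 872 CPM in WT libraries. Cfap45, also of the lumen, had 344 and 374 CPM in GAL and 396 and 555 CPM in WT libraries. The genotypes overlapped for Cfap126, and the GAL pair was the lower for Cfap53 and Cfap45. Cfap44, of the tether of an inner arm dynein, had 473 and 566 CPM in GAL and 597 and 732 CPM in WT libraries. Its partner Cfap43 had 292 and 385 CPM in GAL and 378 and 368 CPM in WT libraries. Cfap298, a dynein arm assembly factor, had 357 and 571 CPM in GAL and 562 and 617 CPM in WT libraries. The GAL pair was the lower for Cfap44, and the genotypes overlapped for Cfap43. They overlapped for Cfap298 before TMM scaling, and after it the GAL pair was the lower, with 406 and 544 CPM, against 576 and 556 CPM in WT libraries. Further genes of this group averaged between 20.01 CPM (Cfap300, a dynein arm assembly factor) and 283 CPM (Cfap36). Cfap73 and Cfap99 had 10 and 8 ciliated UMIs, and Cfap97d1 had 0 there and 1 elsewhere.

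**Figure D2:**
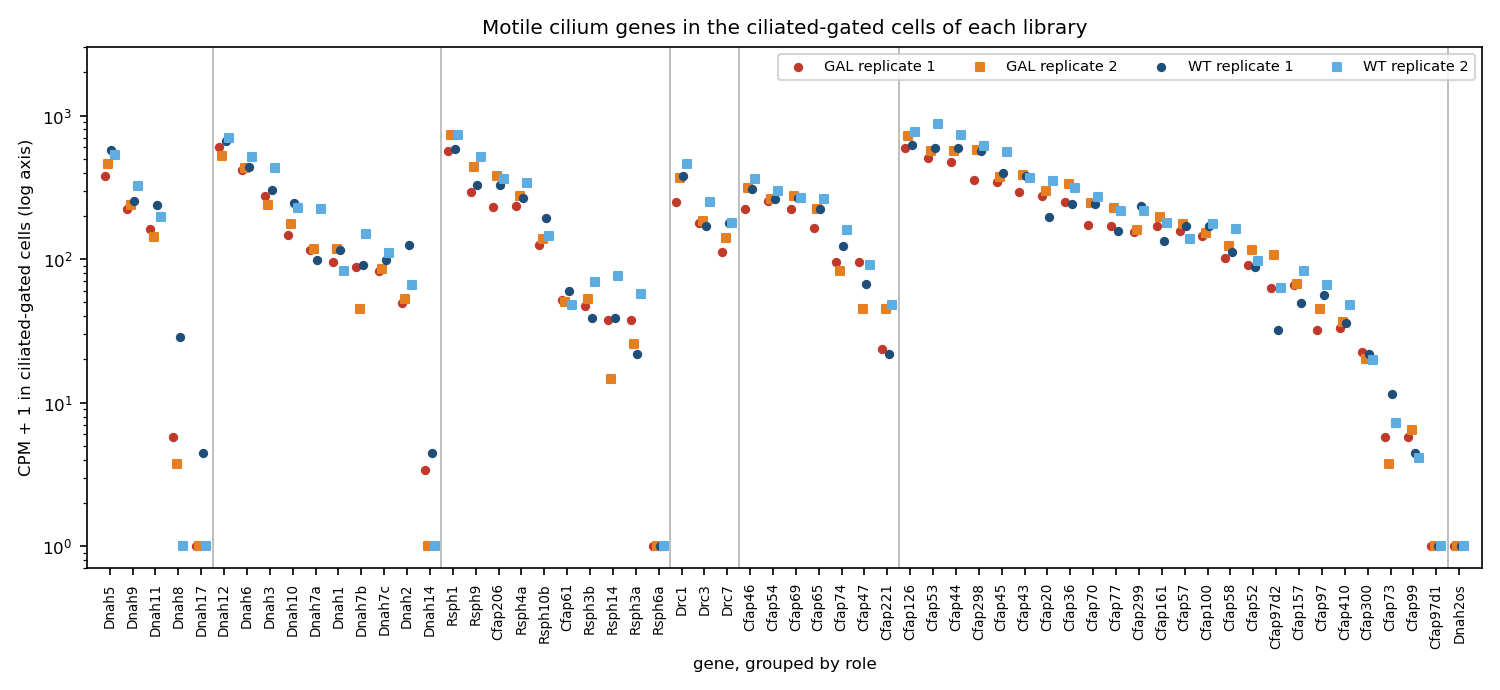
Level of each gene in ciliated cells of the 4 libraries, as CPM plus 1 on a log axis, grouped by role and ordered by ciliated UMIs; red and orange points are GAL libraries, blue points are WT libraries. Libraries of a gene mostly lie within a narrow band, and Dnah17, Dnah14, Rsph6a, Cfap97d1 and Dnah2os lie at or near 0. Cfap73, Cfap99 and Dnah8 are also low, apart from Dnah8 in WT replicate 1.

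The comparison of GAL with WT ciliated cells asks whether the Galt edit goes with a change of the motile programme. No gene was called by edgeR, so the share called was 0.0% of 5347 genes tested and 0 of the 51 motile cilium genes that passed the filter (smallest adjusted p = 0.977). At an unadjusted p under 0.05 there were 246 genes, 1 of them a motile cilium gene. DESeq2 also called 0, and with no filter 38 genes but 0 of 57 motile cilium genes were called. Leaving out GAL replicate 2 gave 42 called genes and leaving out WT replicate 2 gave 7, with 0 motile cilium genes in either. The median log2 fold change of the 51 genes was -0.14, against 0.00 over all genes, with 35 negative and 16 positive. Without TMM scaling these medians were -0.27 and -0.13. After TMM scaling, 18 of the 51 genes were lower and 4 higher in both GAL libraries than in both WT libraries, 43.1% of them, against 34.3% of all genes tested. By direction, 898 of all 5347 genes were lower and 935 higher, so the motile cilium genes leaned to the lower side. The gene with the unadjusted p was Cfap97d2, with 61.8 and 107 CPM in GAL and 31.2 and 62.3 CPM in WT libraries, a log2 fold change of 0.88 ± 0.35 (edgeR adjusted p = 0.977). GAL replicate 1 and WT replicate 2 were nearly equal, and the genotypes overlapped before TMM scaling. For Dnah5 the 95% interval of the log2 fold change ran from -0.75 to 0.19, for Dnah12 from -0.64 to 0.36, for Rsph1 from -0.36 to 0.56 and for Cfap126 from -0.42 to 0.50. Those intervals give the changes that remain compatible with these values, not the smallest change that could be detected. On simulated data, whose spread was fixed rather than taken from these libraries, this fit recovered 15% of 2-fold changes. It recovered 80% of 4-fold changes. The changed genes were drawn from all 5347 genes tested, so these shares are not specific to the motile cilium genes.

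**Figure D3:**
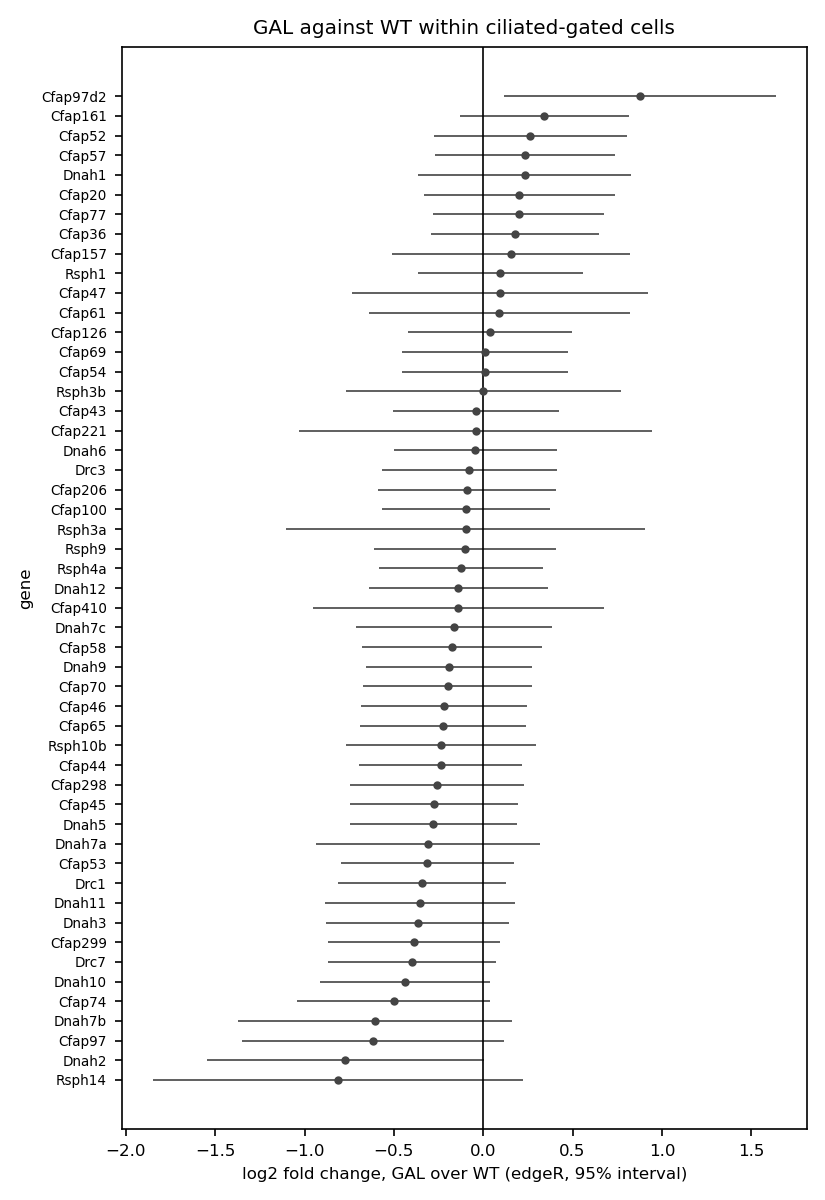
Log2 fold change of GAL over WT in ciliated cells for the 51 genes that passed the filter, with 95% intervals from edgeR. Every interval except that of Cfap97d2 includes 0.

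The 60 genes together took 103 and 121 of every 10000 ciliated UMIs in GAL libraries, against 122 and 145 in WT libraries. After TMM scaling the values were 117 and 116 in GAL and 125 and 131 in WT libraries. The values without TMM scaling averaged 112 ± 12.7 in GAL and 133 ± 16.6 in WT libraries (SD, n = 2 each; exact two-sided permutation p = 0.333, the smallest possible). With the 8 club markers taken out of the total, an alternative chosen after the data were seen, the values were 124 and 123 in GAL and 131 and 147 in WT libraries. With likely doublets kept in, they were 101 and 101 in GAL and 96.2 and 123 in WT libraries, which overlapped. Between 21.7 and 31.7% of gated ciliated cells had been called doublets. With the cluster in place of the gate, the summed values were 83.6 and 120 in GAL and 117 and 145 in WT libraries, which overlapped too. They did not overlap with a stricter gate, a looser gate or a mitochondrial limit of 10%. By role, outer arm heavy chains took 7.69 and 8.44 of 10000 UMIs in GAL and 10.9 and 10.4 in WT libraries. Inner arm heavy chains took 18.6 and 17.8 in GAL and 21.7 and 24.9 in WT libraries. Both GAL libraries lay below both WT libraries for either kind of arm, before and after TMM scaling, and club RNA was highest in GAL replicate 1. Radial spoke genes took 16.2 and 20.9 in GAL and 18.4 and 23.2 in WT libraries. N-DRC genes took 5.39 and 6.88 in GAL and 7.25 and 8.82 in WT libraries. Central apparatus genes took 10.7 and 12.4 in GAL and 12.6 and 14.8 in WT libraries, also without overlap. The remaining Cfap genes took 44.6 and 54.7 in GAL and 50.8 and 62.96 in WT libraries, which overlapped as the radial spoke genes did. Which groups overlapped was the same after TMM scaling. Mitochondrial RNA, a sign of cell stress or damage, was also higher in GAL: the median ciliated cell had 3.10% and 3.10% mitochondrial UMIs in GAL libraries, against 2.66% and 1.98% in WT libraries, and the median of all kept cells was 2.32% and 2.27% in GAL, against 1.83% and 1.78% in WT libraries. The part of mitochondrial RNA in these differences was not tested, nor was that of club RNA and doublets beyond the values given.

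**Figure D4:**
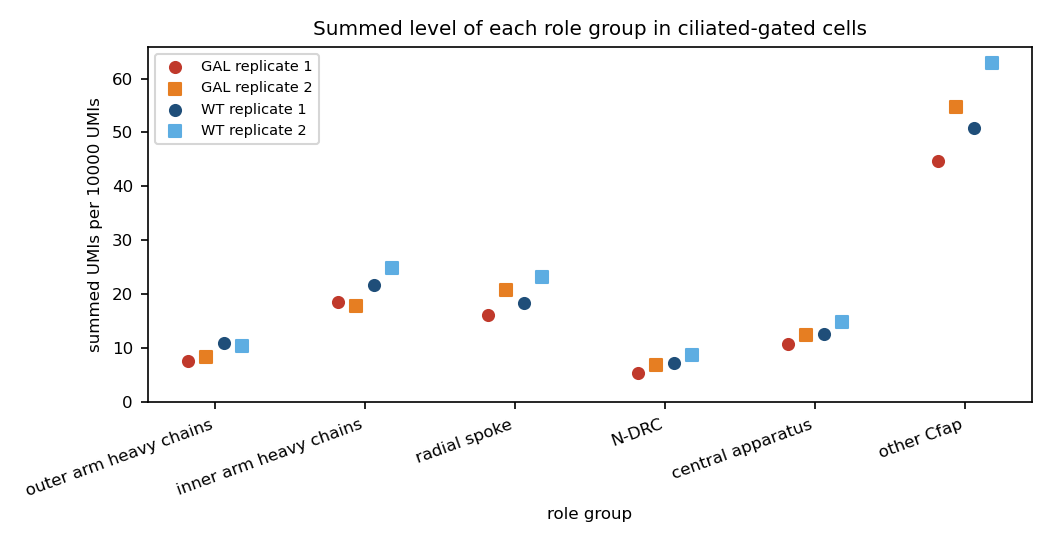
Summed UMIs of each role group per 10000 ciliated UMIs in the 4 libraries; red and orange points are GAL, blue points WT. GAL points lie below WT points for both groups of dynein heavy chains, by a narrow margin for N-DRC and central apparatus, and are interleaved with WT points for the others.

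Other genes of the motile cilium were given by a list of 96, chosen with earlier results of these data known, of which 95 were in the matrices. Of these, 92 passed the filter between ciliated and other cells, where 88 were called higher and 1 lower (Tubb2b, a tubulin of neurons), with a median of 6.59. Dynlrb1, Tekt3 and Tubb3 were not called. Between GAL and WT ciliated cells 85 were tested and 0 called, with 4 at an unadjusted p under 0.05 and a median of -0.02. The smallest p was that of Ccdc103, a dynein arm attachment factor, with 20.2 and 13.7 CPM in GAL and 38.2 and 59.2 CPM in WT libraries (-1.27 ± 0.43, edgeR adjusted p = 0.977), without overlap. The most abundant by UMIs were Tubb4b, the main tubulin of cilia, with 1813 and 2284 CPM in GAL and 1905 and 2427 CPM in WT libraries, and Tuba1a with 1676 and 1994 CPM in GAL and 1555 and 2190.1 CPM in WT libraries. Spag17, of the central apparatus, had 596 and 656 CPM in GAL and 527 and 763 CPM in WT libraries. Hydin, its neighbour there, had 383 and 407 CPM in GAL and 419.9 and 439 CPM in WT libraries. The genotypes overlapped for the first 3, and for Hydin after TMM scaling only. The next by UMIs were Ccdc39, Wdr66, Cep83, Mlf1, Ak7, Ift43 and Wdr60, between 410.2 and 773 CPM in every library. Dnaic1 and Dnaic2, the intermediate chains named differently in the files, were added after their values were seen. Dnaic1 had 153 and 169 CPM in GAL and 229 and 287 CPM in WT libraries (log2 fold change -0.55 ± 0.21, edgeR adjusted p = 0.977), without overlap. Dnaic2 had 105 and 221 CPM in GAL and 149.2 and 149.5 CPM in WT libraries (0.15 ± 0.28, edgeR adjusted p = 0.995).

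In whole lung, summed over all kept cells, motile cilium genes reflect the ciliated share as well; these sums alone do not tell the number of ciliated cells from the level per cell, both of which are given above. No gene was called by edgeR (0.0% of 16831 tested; 1045 at an unadjusted p under 0.05), while DESeq2 called 39 genes. Of the 56 motile cilium genes tested, 0 were called by either tool. Their median log2 fold change was 0.55, against 0.01 over all genes, with 51 positive and 5 negative. In CPM without TMM scaling, 17 were higher and 1 lower without overlap, 32.1% of the 56, against 35.3% of all genes. By direction, 3184 of all 16831 genes were higher and 2764 lower, so the motile cilium genes leaned to the higher side. Without GAL replicate 1, whose ciliated share was the highest, the median was 0.10, and without GAL replicate 2 it was 0.83, with 389 genes but 0 motile cilium genes called. Cfap97d2 had 1.07 and 0.829 CPM in GAL and 0.237 and 0.459 CPM in WT libraries (1.43 ± 0.46, edgeR adjusted p = 0.716). Rsph1 had 10.3 and 6.47 CPM in GAL and 3.85 and 5.40 CPM in WT libraries (0.83 ± 0.28, edgeR adjusted p = 0.716). Both GAL libraries lay above both WT libraries for these genes.

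Outside the ciliated gate, edgeR called 0 of 16559 genes (0.0%; 1020 at an unadjusted p under 0.05) and DESeq2 44, with 0 of the 38 motile cilium genes tested in edgeR and 0 in DESeq2. In CPM without TMM scaling, libraries did not overlap for 18 of the 38 genes, 47.4%, against 35.0% of all genes, 14 being higher and 4 lower in GAL. Of all 16559 genes, 3022 were higher and 2769 lower. 4 genes had an unadjusted p under 0.05. Dnah12 had 4.67 and 3.99 CPM in GAL and 1.99 and 2.50 CPM in WT libraries (0.93 ± 0.25, edgeR adjusted p = 0.746). Cfap43 had 1.00 and 0.571 CPM in GAL and 0.278 and 0.273 CPM in WT libraries. Dnah5 had 0.453 and 0.204 CPM in GAL and 0.0796 and 0.126 CPM in WT libraries. Dnah11 had 3.23 and 1.49 CPM in GAL and 4.28 and 6.42 CPM in WT libraries (-1.21 ± 0.41, edgeR adjusted p = 0.746). GAL libraries were the higher pair for the first 3 genes and the lower pair for Dnah11. Over the 4 libraries Cfap43 had 108 UMIs in these cells and Dnah5 had 44. The cells outside the gate include 72 with 3 or 4 ciliated markers, and GAL replicate 1 had the highest ciliated share, 0.611%. The part of RNA from ciliated cells in these levels was not tested. Without GAL replicate 2, 692 genes were called, 1 of them a motile cilium gene, Cfap53 (2.17 ± 0.33, edgeR adjusted p = 0.023). Within the 14 other cell types, GAL against WT called 0 motile cilium genes, where 0.0% of all genes were called in 10 types. The other 4 had 0.182% in alveolar fibroblasts, 0.158% in monocytes, 0.0284% in general capillary cells and 0.0184% in smooth muscle or myofibroblasts. Few motile cilium genes passed the filter in some types, which limits what these fits could call. Only Cfap97 and Cfap36 were tested in neutrophils, and only Cfap97, Cfap36 and Cfap298 in smooth muscle or myofibroblasts. In innate lymphoid cells no motile cilium gene was tested.

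The difference between the change in ciliated and in other cells was tested with an interaction term, a test added after the data were seen. It called 27 of 16222 genes (0.166%), of which 1 was among the 57 motile cilium genes tested. That gene was Cfap53. In ciliated cells it is given above, with GAL the lower pair. In other cells it had 8.12 and 1.61 CPM in GAL and 1.37 and 1.99 CPM in WT libraries, so that GAL replicate 1 alone was high. The change in ciliated cells minus that in other cells was -1.42 ± 0.35 on the log2 scale (edgeR adjusted p = 0.037). Without GAL replicate 1 the difference was -0.36 ± 0.39 (edgeR adjusted p = 1.0) and without GAL replicate 2 it was -2.33 ± 0.36 (edgeR adjusted p = 7.2e-08). Without WT replicate 1 or WT replicate 2 it was -1.41 ± 0.49 and -1.39 ± 0.50 (edgeR adjusted p = 0.884 and 0.848). The test called 4 motile cilium genes with doublets kept in, where 0.427% of all genes were called, and 1 with total UMIs in place of TMM scaling (0.154% of all genes). It called 6 without GAL replicate 2 (0.803% of all genes). It called 0 without GAL replicate 1 (0.0547%), WT replicate 1 (0.0651%) or WT replicate 2 (0.0533%). Alveolar and adventitial fibroblasts held 384 of its 673 UMIs outside ciliated cells (57.1%), and GAL replicate 1 had the most alveolar fibroblasts, as given above. The part of that cell number in the result was not tested.

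Several of the 60 genes had RNA in particular cell types that bear no motile cilia. Each of the other 14 types was compared with all remaining cells outside the ciliated gate by edgeR with library as a block. Of the 60 genes, 47 were tested in at least 1 type. Of these, 31 were called higher in at least 1 type (66.0%), against 92.9% of all genes tested in at least 1 type. With a level of at least 5 CPM as well, 15 were (31.9%), against 73.9% of all genes. The genes named below are described for where their RNA was. In adventitial fibroblasts 11 of 37 tested were called higher (29.7%, against 24.8% of all genes), the one type where the share was above that of all genes. The counts were 7 of 41 in alveolar fibroblasts (17.1%, against 24.3%), 7 of 26 in alveolar macrophages (26.9%, against 33.3%) and 6 of 34 in NK cells (17.6%, against 20.3%). They were 5 of 31 in aerocytes (16.1%, against 17.7%), 5 of 34 in general capillary cells (14.7%, against 26.1%), 5 of 36 in interstitial macrophages (13.9%, against 17.8%) and 5 of 33 in neutrophils (15.2%, against 22.4%). They were 4 of 25 in T cells (16.0%, against 31.1%), 4 of 29 in smooth muscle or myofibroblasts (13.8%, against 15.3%) and 3 of 29 in dendritic cells (10.3%, against 21.4%). In monocytes 2 of 28 were called higher (7.14%, against 17.1%), in B cells 1 of 26 (3.85%, against 31.1%) and in innate lymphoid cells 0 of 27 (0.0%, against 7.76%). The most called lower were 11 of 26 in B cells (42.3%, against 42.7% of all genes) and 11 of 26 in alveolar macrophages (42.3%, against 40.4%). Club, alveolar type 1 and alveolar type 2 cells had fewer than 30 cells in some library and were not compared.

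Dnah8 was highest in general capillary cells, the endothelial cells that line most of the alveolar capillary. It had 37.0 and 74.0 CPM there in GAL and 42.9 and 50.7 CPM in WT libraries (2.64 ± 0.16, edgeR adjusted p = 6.6e-08; 26.1% of all genes were called higher in this type). In T cells it had 22.8 and 27.03 CPM in GAL and 21.7 and 26.7 CPM in WT libraries (2.08 ± 0.15, edgeR adjusted p = 7.6e-08; 31.1% called higher). In NK cells it had 36.0 and 29.4 CPM in GAL and 10.51 and 29.0 CPM in WT libraries (1.52 ± 0.21, edgeR adjusted p = 4.7e-12; 20.3% called higher). Alveolar macrophages averaged 0.313 CPM. Dnah8 lies at chromosome 17, 30624354 to 30877365 (GRCm38, plus strand), and overlaps 4 counted genes on the other strand, among them Glo1. The levels of the others were not compared, and the files do not say whether counting used strand. Glo1, a glyoxalase, averaged 45.8 CPM in general capillary cells and 71.6 CPM in alveolar fibroblasts, where Dnah8 averaged 4.51 CPM.

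Dnah2os, an RNA antisense to Dnah2 (chromosome 11, 69448548 to 69453676, plus strand), had 26.9 and 18.1 CPM in general capillary cells of GAL and 27.2 and 29.8 CPM in those of WT libraries (4.73 ± 0.22, edgeR adjusted p = 1.3e-08). It was not detected in ciliated cells and averaged 2.19 CPM in other cells, so it was at least 1.33-fold lower in ciliated cells by a floor of 3 UMIs over the 4 libraries. This was the gene called lower there by edgeR, and DESeq2 called 0 lower. Dnah2 itself averaged 2.14 CPM in general capillary cells. Dnah2 was higher in dendritic cells, with 5.64 and 6.45 CPM in GAL and 4.51 and 5.85 CPM in WT libraries (2.81 ± 0.34, edgeR adjusted p = 3.5e-06; 21.4% called higher). In monocytes it had 7.83 and 2.69 CPM in GAL and 5.996 and 5.34 CPM in WT libraries (2.52 ± 0.44, edgeR adjusted p = 0.00016; 17.1% called higher).

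Cfap69, of the central apparatus, was higher in aerocytes, the endothelial cells specialised for gas exchange. It had 18.0 and 17.0 CPM there in GAL and 11.0003 and 21.04 CPM in WT libraries (4.39 ± 0.43, edgeR adjusted p = 4.0e-19; 17.7% called higher). Its ciliated mean of 257 CPM was 15.3 times the aerocyte mean. Dnah11 was higher in alveolar macrophages, with 10.2 and 4.52 CPM in GAL and 10.1 and 18.6 CPM in WT libraries (3.93 ± 0.25, edgeR adjusted p = 3.5e-06; 33.3% called higher). It was also called higher in aerocytes, with 10.4 and 3.40 CPM in GAL and 17.6 and 11.8 CPM in WT libraries (1.27 ± 0.37, edgeR adjusted p = 0.0021; 1.04 and not called without GAL replicate 1). GAL replicate 2 was the lowest library in both types. Dnah11 overlaps Cdca7l on the other strand, which averaged 8.68 CPM in alveolar macrophages and 20.3 CPM in NK cells, where Dnah11 averaged 0.321 CPM.

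Other genes were called higher in fibroblasts or smooth muscle. Cfap53 had 35.8 and 11.1 CPM in alveolar fibroblasts of GAL and 10.45 and 7.18 CPM in those of WT libraries (2.64 ± 0.25 against the rest, edgeR adjusted p = 5.1e-06; 24.3% called higher). In adventitial fibroblasts it had 20.9 and 11.9 CPM in GAL and 6.53 and 18.8 CPM in WT libraries (2.72 ± 0.35, edgeR adjusted p = 3.8e-05; 24.8% called higher). GAL replicate 1 was the highest library in both. Rsph9 had 9.15 and 13.8 CPM in adventitial fibroblasts of GAL and 14.4 and 11.1 CPM in those of WT libraries (2.61 ± 0.31, edgeR adjusted p = 1.8e-05). It was also called higher in alveolar fibroblasts and in smooth muscle or myofibroblasts (15.3% called higher), with means of 10.998 and 12.7 CPM. Rsph9 overlaps Mrps18a, a mitochondrial ribosomal protein gene, on the other strand. Mrps18a averaged 57.8 CPM in general capillary cells, where Rsph9 averaged 1.89 CPM. Cfap45 was called higher in the same 3 types and in interstitial macrophages (17.8% called higher), with means of 5.32 to 10.9 CPM. Dnah12 was called higher in both fibroblast types and in monocytes, with means of 6.61 to 10.1 CPM.

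A last group had a mean level above 0 in every type, as Dnah8 also did, with as little as 0.0643 CPM in interstitial macrophages. Cfap20, a protein of the doublet's inner junction, averaged 278 ± 64.1 CPM in ciliated and 20.7 CPM in other cells (3.40 ± 0.19, edgeR adjusted p = 2.0e-23). Cfap36 averaged 283 ± 45.3 CPM in ciliated and 25.4 CPM in other cells (3.12 ± 0.18, edgeR adjusted p = 5.6e-22). Cfap298 averaged 527 ± 116 CPM in ciliated and 14.7 CPM in other cells, and Cfap410, which acts in primary cilia as well, 37.3 ± 6.48 and 6.26 CPM. Cfap97 had the smallest called difference, with 48.9 ± 14.9 CPM in ciliated and 17.1 CPM in other cells (SD, n = 4; 1.09 ± 0.24, edgeR adjusted p = 8.0e-05). It was called higher in B cells (31.1% called higher), general capillary cells, aerocytes, NK and T cells than in the rest, with 33.1 and 27.9 CPM in B cells of GAL and 30.5 and 27.02 CPM in those of WT libraries. Rsph3b, of the spoke stalk, was called higher in alveolar macrophages, with 5.94 and 5.04 CPM in GAL and 5.16 and 5.46 CPM in WT libraries (1.43 ± 0.16, edgeR adjusted p = 0.00011).

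**Figure D5:**
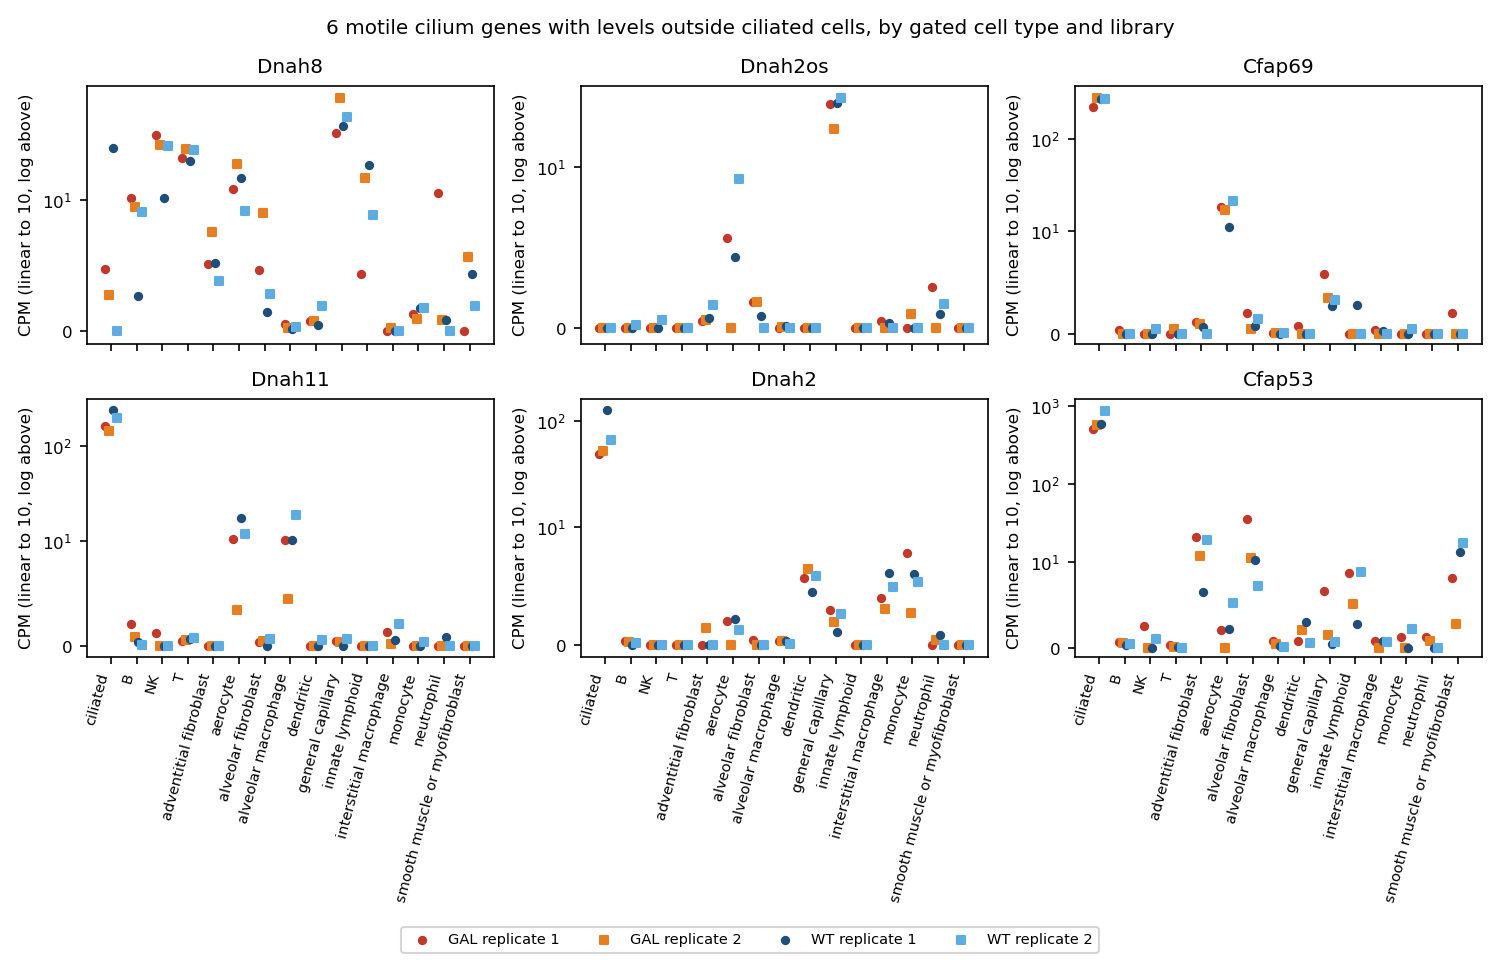
CPM of 6 motile cilium genes in ciliated cells and 14 other cell types, 1 point per library, red and orange for GAL and blue for WT; the axis is linear to 10 CPM and logarithmic above. Dnah8 and Dnah2os peak in general capillary cells, while Cfap69, Dnah11, Dnah2 and Cfap53 peak in ciliated cells and have a lower second level elsewhere.

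The 60 genes lie on 18 chromosomes in GRCm38 (GENCODE annotation). The span of 33 overlaps that of another counted gene, and 32 do so on the other strand, so reads from the shared stretches cannot be told apart unless strand was used; how far these stretches are exonic was not measured. Dnah5 (chromosome 15, 28203752 to 28472052, plus strand), Dnah12 (chromosome 14, 26693274 to 26891703, plus strand) and Cfap126 (chromosome 1, 171113918 to 171126967, plus strand) overlap none. Rsph1 (chromosome 17, 31255019 to 31277383, minus strand) overlaps an unnamed gene on the other strand.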

How the data were processed

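Single-cell RNA of mouse lung had been counted per gene and cell barcode. The authors deposited whole-number UMI counts. Tools named in the submitters' processing notes are fastp, STAR and Seurat, with the builds GRCm38 and mm10. The counter, the annotation and whether counting used strand are not given in the sources used here. Replicate numbers follow accession order and pair no samples. Genes and lists were chosen with earlier results of these data known.

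Kept barcodes had 500 UMIs or more, 300 genes or more and no more than 20% mitochondrial UMIs (scanpy 1.11.5). The cells with the highest Scrublet scores were then removed, at 0.8% per 1000 cells. The rule that turns the ciliated markers into a gate was set after the number of markers per cell was seen, and before the levels of the 60 genes were. Counts were summed per library and cell type. They were tested on all genes with edgeR 4.0.16 (filterByExpr, TMM, quasi-likelihood test, Benjamini-Hochberg, called at an adjusted p under 0.05) in R 4.3.3, with DESeq2 1.42.0 as an alternative; the fits were also tested on simulated data. Comparisons between cell types had library as a block. Genes given in full were, per role group, up to 6 with the most ciliated UMIs, any called between GAL and WT and any highest outside ciliated cells. Genes named for an unadjusted p under 0.05 or for another cell type (called there with at least 5 CPM) were chosen after their values were seen, as were the interaction test and the tests of GAL against WT within types. Positions come from a GENCODE annotation of GRCm38, which may differ from the authors' annotation.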

Additional observations from a re-analysis of the deposited data

Results flagged for a closer look

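Cfap53 was the motile cilium gene whose change between GAL and WT differed between ciliated and other cells. The change in ciliated cells minus that in other cells was -1.42 ± 0.35 on the log2 scale (edgeR adjusted p = 0.037, interaction term). In separate fits of each kind of cell, whose difference need not equal that of the interaction fit, the log2 fold change was -0.31 ± 0.22 in ciliated cells and 1.48 ± 0.75 in other cells. Outside ciliated cells GAL replicate 1 had 8.12 CPM and GAL replicate 2 had 1.61 CPM, against 1.37 and 1.99 CPM in WT libraries. The number of alveolar fibroblasts was 911 and 340 in GAL libraries, against 312 and 294 in WT libraries. Within alveolar fibroblasts the log2 fold change was 1.52 ± 0.53 (edgeR adjusted p = 0.539). The difference ranged from -2.33 to -0.36 when 1 library was left out, and of these 4 fits only that without GAL replicate 2 called it.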

How the results depend on the processing

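No paired analysis was possible because the replicate numbers only follow accession order and the labels pair no GAL library with a WT library. The block in the comparisons between cell types is the library; without this replicate block, 3 motile cilium genes in place of 6 were called higher in NK cells. Of the counts and library values, 57 of 58 alternatives that kept all libraries stayed within 1.5 times or on the same side of the threshold, and 71 of 84 that left 1 library out did. Outside the ciliated gate 0 motile cilium genes were called, and 0 to 1 with 1 library left out. With 1 library left out, the number called higher was 1 to 3 in NK cells (6 with all), 2 to 3 in T cells (4), 3 to 5 in aerocytes (5), 1 to 2 in dendritic cells (3), 3 to 5 in interstitial macrophages (5), 3 to 5 in neutrophils (5) and 1 to 4 in smooth muscle or myofibroblasts (4).

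Small differences between GAL and WT ciliated cells changed sign, none of them called. Total UMIs in place of TMM scaling gave -0.12 for Cfap54, -0.081 for Cfap126 and -0.021 for Rsph1. With likely doublets kept in, Drc3 was at 0.050 and Dnah6 at 0.087. The cluster in place of the gate gave -0.092 for Cfap54 and -0.011 for Cfap126, and a stricter gate -0.018 for Cfap54. With 1 library left out, Drc3 ranged from -0.25 to 0.15, Cfap54 from -0.094 to 0.11, Dnah12 from -0.39 to 0.085, Dnah6 from -0.15 to 0.066, Cfap126 from -0.027 to 0.12 and Rsph9 from -0.32 to 0.17. Dnah17, a single ciliated UMI, was at -0.14 between ciliated and other cells; it was at 0.20 with DESeq2, 0.13 with total UMIs and from -6.86 to 0.74 with 1 library left out. The cause was not tested. With 36 to 67 ciliated cells per library, depth limits what can be seen of genes with few UMIs.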
